A study of Caenorhabditis elegans with 2 samples.

Results

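Small nucleolar RNA (snoRNA) genes of Caenorhabditis elegans were examined for binding of SNPC-1.3 in peak lists from ChIP-seq of whole young adult hermaphrodites. All nuclear genes of biotype snoRNA in the Ensembl annotation of WBcel235 (ce11) were taken, apart from genes of the smY family, which gave 344 of 46890 nuclear genes. Of these, 182 lay inside a protein-coding gene on the strand of that host gene, 33 lay inside one on the opposite strand and 129 lay outside, 6 of them with a partial overlap. Strain YL485 carried SNPC-1.3 (gene F08F3.9) with a C-terminal GFP-FLAG tag, and chromatin was precipitated with an anti-GFP antibody. The series held 1 group of 2 biological replicates, both called against the same control, so every comparison is between genes and none is between conditions. The sources used here do not say which promoter drove the tagged gene, and chromatin of whole animals does not tell which tissue a peak came from.

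SNPC-1.3 is a worm relative of a SNAPc subunit. SNAPc binds the proximal sequence element upstream of spliced leader (SL) RNA genes and of genes for small nuclear RNAs (snRNAs), and recruits RNA polymerase II or III. snoRNAs guide the chemical modification of ribosomal and other RNAs in the nucleolus: C/D box snoRNAs direct 2′-O-methylation and H/ACA box snoRNAs direct pseudouridylation. In many animals snoRNAs are processed out of the introns of host genes and need no promoter of their own, while others are transcribed from their own promoters. tRNA genes, the best known targets of RNA polymerase III, carry internal A and B boxes bound by TFIIIC and end in a run of T.

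The sequences upstream of the strongest peaks are shown first, because they carried a common element. Each runs from 100 bases upstream of the annotated 5′ end through the first 20 bases of the gene, on the gene's strand, in the RefSeq genome sequence of WBcel235. Capitals mark AACNCG followed 5 bases on by TGTC, with at most 1 mismatch allowed, called the half-site element below. The first 6 loci are among those of highest signal, and Y48A6C.10 had the element but no peak that passed the irreproducible discovery rate (IDR) step. Only 53.0% of the 31-mers in Y48A6C.10 and 250 bp around it occurred once in the genome, so its call is uncertain. The element was read off after the upstream sequences of loci with a peak had been seen, so its counts are descriptions.
ZK994.7, chrV:8500479-8500598, plus strand: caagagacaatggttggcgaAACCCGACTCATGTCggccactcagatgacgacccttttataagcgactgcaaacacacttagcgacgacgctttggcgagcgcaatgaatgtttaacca
Y53F4B.47, chrII:15025874-15025993, minus strand: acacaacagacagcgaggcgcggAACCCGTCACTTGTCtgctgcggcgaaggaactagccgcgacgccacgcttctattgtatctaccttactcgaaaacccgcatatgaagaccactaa
C16D9.11, chrV:8228950-8229069, minus strand: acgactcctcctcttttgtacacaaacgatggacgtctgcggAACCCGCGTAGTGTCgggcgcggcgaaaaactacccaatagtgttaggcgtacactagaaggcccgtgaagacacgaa
C08D8.3, chrV:8349008-8349127, plus strand: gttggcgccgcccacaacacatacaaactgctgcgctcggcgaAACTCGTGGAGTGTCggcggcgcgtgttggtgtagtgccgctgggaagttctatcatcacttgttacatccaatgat
F54F11.6, chrII:13521201-13521320, plus strand: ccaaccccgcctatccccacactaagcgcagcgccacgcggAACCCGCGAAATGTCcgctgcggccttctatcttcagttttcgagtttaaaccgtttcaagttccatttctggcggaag
W04D2.7, chrV:12491180-12491299, plus strand: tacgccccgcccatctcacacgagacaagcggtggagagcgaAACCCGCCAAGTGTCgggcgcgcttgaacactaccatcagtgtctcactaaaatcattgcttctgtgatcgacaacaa
Y48A6C.10, chrIII:11118261-11118380, plus strand: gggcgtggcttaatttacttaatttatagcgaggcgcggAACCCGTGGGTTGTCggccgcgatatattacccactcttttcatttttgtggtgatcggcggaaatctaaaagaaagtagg

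A second set of strong loci carried another pattern, shown here in the same windows. The first block of capitals marks TGGNNNA followed 2 or 3 bases on by GG, called the A-box pattern below because its letters are in part those of the A box of tRNA genes. The second block marks the first match to the B box letters GTTCNANNC on the gene's strand, further downstream in the loci printed. All printed loci with the pattern hold it. Among all loci with a peak and the pattern, 19 of 35 had a B box upstream. F38E11.14 and T06C12.16, also among the loci of highest signal with the pattern, had none and are not printed. The pattern was also chosen after the sequences were seen, and no locus held both it and the half-site element. In B0334.12, printed last, neither element was present, although the peak was among the strongest.
T03F7.8, chrV:11314158-11314277, plus strand: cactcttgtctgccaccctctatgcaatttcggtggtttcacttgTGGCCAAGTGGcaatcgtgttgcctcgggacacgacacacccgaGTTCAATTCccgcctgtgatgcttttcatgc
C51F7.3, chrV:12303608-12303727, plus strand: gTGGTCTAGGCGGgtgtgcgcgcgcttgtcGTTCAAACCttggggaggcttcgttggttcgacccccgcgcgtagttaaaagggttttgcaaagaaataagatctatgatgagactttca
W03C9.9, chrII:11960798-11960917, plus strand: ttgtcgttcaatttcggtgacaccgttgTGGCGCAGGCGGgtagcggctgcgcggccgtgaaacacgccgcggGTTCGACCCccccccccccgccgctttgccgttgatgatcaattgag
F32E10.10, chrIV:7574022-7574141, plus strand: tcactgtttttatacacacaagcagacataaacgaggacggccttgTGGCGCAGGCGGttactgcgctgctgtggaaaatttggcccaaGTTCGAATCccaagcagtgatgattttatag
Y43F8C.22, chrV:19643168-19643287, minus strand: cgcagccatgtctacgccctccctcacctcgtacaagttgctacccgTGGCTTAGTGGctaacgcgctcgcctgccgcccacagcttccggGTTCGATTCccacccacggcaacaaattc
B0334.12, chrII:11484583-11484702, plus strand: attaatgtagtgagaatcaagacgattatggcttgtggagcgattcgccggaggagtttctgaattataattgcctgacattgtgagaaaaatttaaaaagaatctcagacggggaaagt

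The genes themselves are shown for 3 C/D box loci with a peak, each with the 25 bases after its annotated 3′ end, to show the boxes and the T run counted below. Capitals mark, in order, the C box (TGATGA with at most 1 mismatch), the D box CTGA and the first run of at least 4 T downstream.
T03F7.8, chrV:11314258-11314357, plus strand: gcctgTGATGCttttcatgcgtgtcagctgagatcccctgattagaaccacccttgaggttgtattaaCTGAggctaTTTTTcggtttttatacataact
F01D5.12, chrII:14018329-14018441, minus strand: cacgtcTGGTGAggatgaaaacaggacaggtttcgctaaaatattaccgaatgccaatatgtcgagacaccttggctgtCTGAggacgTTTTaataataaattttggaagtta
Y55F3BR.9, chrIV:867031-867133, minus strand: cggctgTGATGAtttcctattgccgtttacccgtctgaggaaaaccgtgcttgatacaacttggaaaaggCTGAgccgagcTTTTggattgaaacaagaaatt

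An IDR peak was found at 86 of the 344 snoRNA loci (25%, Clopper-Pearson 95% interval 20.5 to 29.9%), meaning that the summit of a peak in the authors' IDR list fell inside the gene or at most 250 bp away. Of all 30000 pooled candidate regions, 5.59% were in that list. Among other nuclear genes no longer than the longest snoRNA gene, 870 of 24925 (3.49%) had such a peak, and 818 of 9562 (8.55%) when piRNA genes were left out. These other genes include tRNA and snRNA genes, which had a peak more often than snoRNA genes, at 349 of 612 and 32 of 99. The 86 loci rested on 85 peaks, since C51F7.3 and C51F7.4 shared 1. A further 97 loci had only a pooled candidate that was not in the IDR list, and 161 had no candidate at all. The share of other genes with a candidate was not counted, so the 97 are not shown to be more than the background. Peak signal, which the authors' caller gave in a unit of its own, had a median of 111 at the 86 loci, against 57.4 over all 1650 nuclear IDR peaks. By the upstream sequence, the 25 peaks at snoRNA genes among the 50 strongest nuclear peaks were 14 with the half-site element, 7 with the A-box pattern and 4 with neither.

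**Figure D1:**
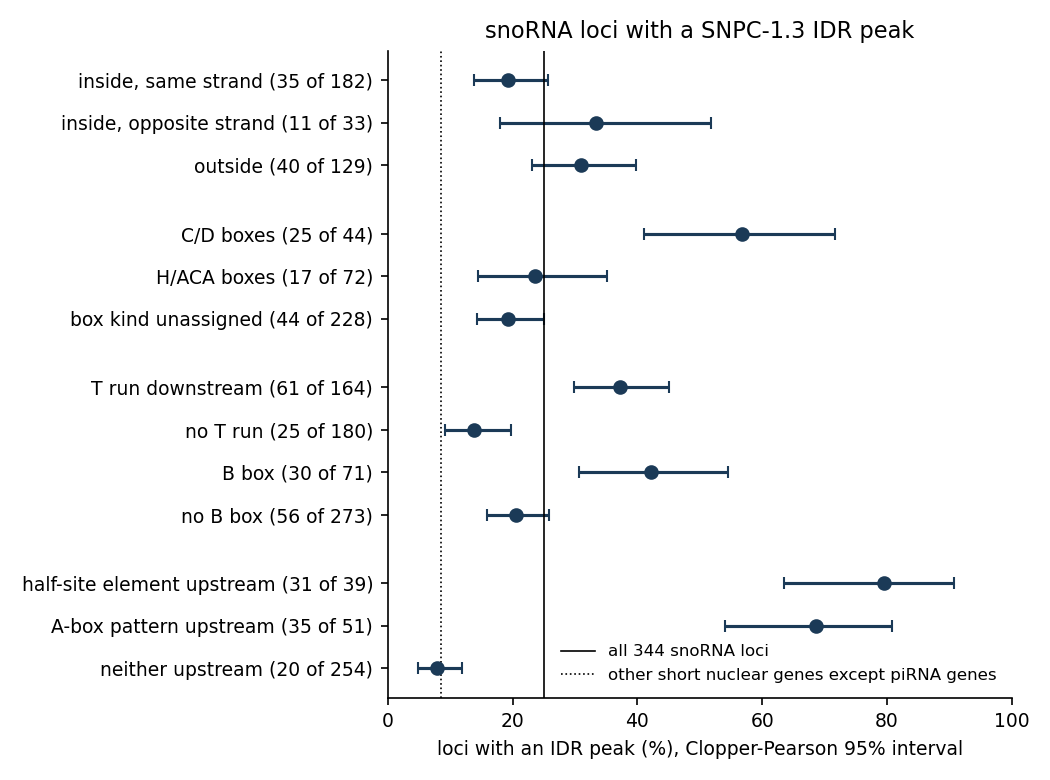
Share of snoRNA loci with an IDR peak, by place, box kind, sequence features and upstream element. Points are percentages with Clopper-Pearson 95% intervals, counts are given at the left, the solid line is the share of all 344 loci (25%) and the dotted line that of other short nuclear genes except piRNA genes (8.55%). Loci with either upstream element stand furthest to the right, and loci with neither lie at the dotted line. The genes behind the dotted line include tRNA and snRNA genes, which often had a peak.

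Loci inside a host gene on the same strand, the arrangement of a snoRNA that can be spliced out with its host, included the strongest peak. ZK994.7, in an intron of the peroxidasin gene pxn-1, had a signal of 276 in the pooled list (chrV:8500453-8500622), 121 in replicate 1 and 159.8 in replicate 2. It ranked 22nd and 31st of the 30000 regions of each replicate, and its summit lay 40 bp upstream of the annotated 5′ end. An intron of rol-3, a gene for a receptor tyrosine kinase-like protein, held C16D9.11, with 239 in the pooled list (chrV:8228922-8229106), 100.05 in replicate 1 and 142 in replicate 2. Introns of C08D8.1, of the serpentine receptor gene sre-45 and of the innexin gene inx-11 held C08D8.3, F54F11.6 and W04D2.7. Their pooled signals were 227, 208 and 201.4, with 92.4, 55.7 and 80.6 in replicate 1 and 136, 148 and 123 in replicate 2. F01D5.12, in an intron of F01D5.10, had a signal of 184 in the pooled list, 49.5 in replicate 1 and 135 in replicate 2. All 6 had the half-site element upstream and a summit 29 to 49 bp before the gene. The seventh and eighth, C51F7.4 in an exon and C51F7.3 in an intron of frm-7, a FERM domain gene, shared a peak of signal 172, with 57.3 in replicate 1 and 114 in replicate 2. That summit was 31 bp inside C51F7.4 and 78 bp upstream of C51F7.3, which carries the A-box pattern. Both blocks of capitals printed for C51F7.3 lie inside the annotated C51F7.4, which was itself counted with neither element.

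Loci inside a host gene on the opposite strand, which the host transcript does not contain in sense, had peaks as well. T03F7.8, in the cuticlin-like gene cutl-18, had the A-box pattern and a signal of 197 in the pooled list (chrV:11314126-11314271), 89.3 in replicate 1 and 108.6 in replicate 2. Y55F3BR.9 in Y55F3BR.2 and C05H8.3 in the calmodulin kinase kinase gene ckk-1 had the half-site element. Their pooled signals were 174 and 155, with 58.8 and 53.2 in replicate 1 and 121 and 102 in replicate 2. B0334.12, in an intron of the potassium channel gene twk-5, had 182 in the pooled list, 74.3 in replicate 1 and 119 in replicate 2. Its summit lay 153 bp downstream of its 5′ end, beyond its 3′ end and within 500 bp of the start of twk-5, so by position the 2 genes cannot be told apart as the site of this peak. At the other 3 of these 4 loci the summit was 33 to 68 bp upstream.

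Outside protein-coding genes the order began with Y53F4B.47, a C/D box locus of signal 257 in the pooled list (chrII:15025889-15026060), 94.5 in replicate 1 and 163.7 in replicate 2. It lies 221 bp from the start of cmtr-1, which encodes a cap methyltransferase. T08B6.64 and Y67A10A.14 followed, with 209 and 198 in the pooled list, 69.2 and 60.9 in replicate 1 and 146 and 148 in replicate 2. Next came ZK265.10 and Y74C9A.6, with 187 and 179.7 in the pooled list, 82.5 and 60.9 in replicate 1 and 100.3 and 120.2 in replicate 2. C16D9.10, T19B4.8 and W03C9.9 completed the 8, with 174, 169.7 and 168 in the pooled list. In replicate 1 these last 3 had 50.6, 78.3 and 61.7, and in replicate 2 they had 129, 99.2 and 96.9. Of the 8, ZK265.10, T19B4.8 and W03C9.9 had the A-box pattern and the other 5 the half-site element. All 8 summits lay upstream, by 41 to 92 bp.

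**Figure D2:**
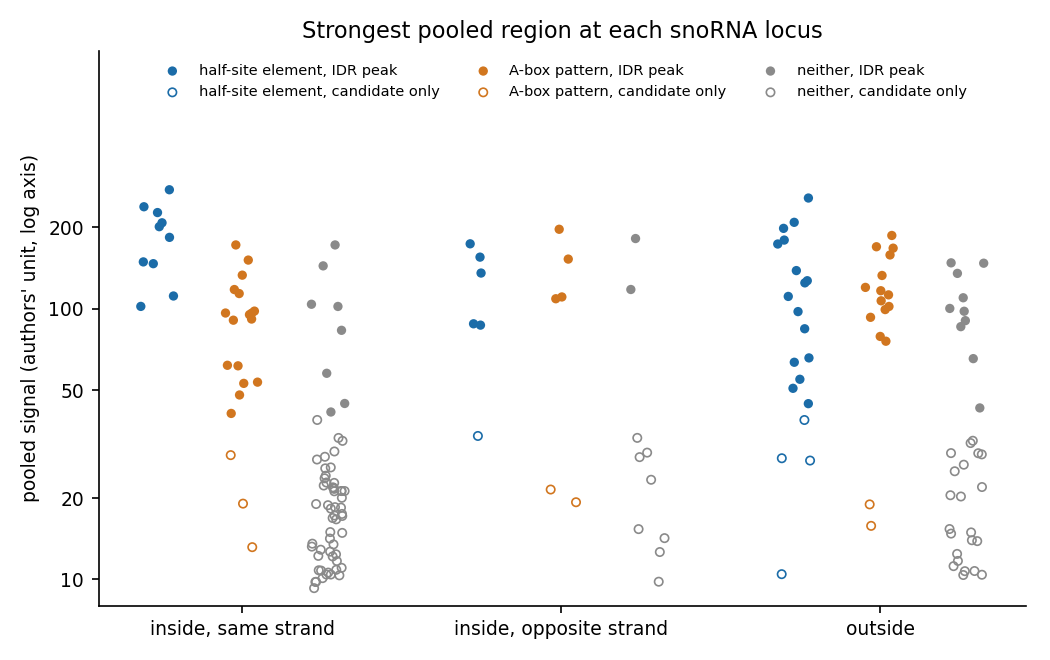
Pooled signal of the strongest region at each snoRNA locus with a region, on a log axis, by place and by upstream element. Filled points are IDR peaks (86 loci) and open points are candidates outside the IDR list (97 loci). In each place, loci with the half-site element or the A-box pattern are mostly filled points and loci with neither are mostly open ones.

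Same-strand loci had a peak less often than loci outside, at 35 of 182 (19.2%, 13.8 to 25.7%) against 40 of 129 (31.01%, 23.2 to 39.7%). The odds ratio was 0.530 (Woolf 95% interval 0.314 to 0.895, 2-sided Fisher's exact test, Benjamini-Hochberg adjusted p = 0.0404 over 10 tests). Opposite-strand loci had one at 11 of 33 (33.3%, 17.96 to 51.8%), and this did not pass the test against outside loci (odds ratio 1.11, 0.493 to 2.51, exact test, adjusted p = 0.835). Same-strand against opposite-strand loci also missed the threshold (0.476, 0.211 to 1.07, exact test, adjusted p = 0.148). The first difference passed in 4 of 11 alternatives. It was 0.587 (exact test, adjusted p = 0.0784) in the regions of replicate 1 alone, without replicate 2. Leaving out loci that overlap host exons, a choice made after seeing the data, gave 0.636 (exact test, adjusted p = 0.195 over 3 tests).

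Among same-strand loci, 32 of 144 wholly in introns had a peak (22.2%), against 3 of 38 overlapping an exon (7.89%), which was not tested. The 3 were C51F7.4, F39B2.14 in an exon of tmem-107 and C14C10.8 in an exon of ril-2. More than 500 bp from the host's start the share was 31 of 150 (20.7%), against 4 of 32 (12.5%) within 500 bp, and this did not pass the test (odds ratio 1.82, 0.595 to 5.59, exact test, adjusted p = 0.372). The direction turned with a window of 500 bp in place of 250 bp (0.396, exact test, adjusted p = 0.0666). When summits had to lie at most 0.5 times as far away, it was 30 of 150 against 1 of 32, past the threshold (exact test, adjusted p = 0.0294).

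Ribosomal protein genes, which in many animals host snoRNAs, held 19 loci in 13 host genes here, and 2 had a peak (10.5%). F54E7.10, an H/ACA locus in an intron of rps-12, had 104 in the pooled list, 34.4 in replicate 1 and 71.0 in replicate 2. Its summit was 221 bp upstream and within 500 bp of the starts of rps-12 and ska-3. B0412.7, an H/ACA locus in an intron of rps-29, had 41.6 in the pooled list, 18.1 in replicate 1 and 29.1 in replicate 2. Its summit lay 353 bp downstream of the 5′ end, beyond the gene and within 500 bp of the start of trpp-11. Neither locus had an upstream element, and neither summit was within 100 bp upstream of its snoRNA gene.

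Box kinds were read from the gene sequences, with a C box in the first 20 bases and a D box in the last 20 for C/D loci. H/ACA loci were those of at least 100 bases with ACA 2 to 4 bases from the 3′ end. The rules named 44 C/D and 72 H/ACA loci and left 228 unassigned. C/D loci had a peak at 25 of 44 (56.8%, 41.0 to 71.7%), against 17 of 72 H/ACA loci (23.6%, 14.4 to 35.1%) and 44 of 228 unassigned loci (19.3%). The odds ratio of C/D against H/ACA was 4.26 (1.90 to 9.54, exact test, adjusted p = 0.00152). Outside protein-coding genes, a setting chosen after seeing the data, 14 of 16 C/D loci had a peak, against 4 of 13 H/ACA loci. The odds ratio was 15.75, with a wide interval (2.37 to 104.5, exact test, adjusted p = 0.00548 over the 4 tests made among outside loci). On the same strand as a host the counts were 8 of 21 and 12 of 54, which did not pass the test (2.15, exact test, adjusted p = 0.325 over 4 tests). With a window of 500 bp the overall odds ratio was 2.63. At C/D loci the peaks had a median signal of 120.1, against 96.4 at H/ACA loci.

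C/D peaks were divided between the upstream elements, with 12 of 25 at the A-box pattern, 9 at the half-site element and 4 at neither. Of the 17 H/ACA peaks, 10 had the A-box pattern, 0 the half-site element and 7 neither. The 3 strongest peaks at H/ACA loci, named after their values were seen, began with Y53F4B.48, outside a host, at 148 in the pooled list, 45.1 in replicate 1 and 103.9 in replicate 2. D1046.6, in an intron of cfim-2, had 144 in the pooled list, 37.1 in replicate 1 and 113 in replicate 2. Both had neither element, and the summit at Y53F4B.48 was within 500 bp of the start of gst-27. Y43F8C.22, with the A-box pattern, had 133 in the pooled list, 53.4 in replicate 1 and 85.2 in replicate 2.

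Counted over all loci, 31 of the 39 with the half-site element had an IDR peak (79.5%, 63.5 to 90.7%), as did 35 of the 51 with the A-box pattern (68.6%, 54.1 to 80.9%). Of the 254 with neither, 20 had one (7.87%, 4.88 to 11.9%). The 2 patterns together covered 66 of 86 loci with a peak, against 12 of 97 with only a candidate and 12 of 161 with no candidate. In the same 100 bases upstream of all other nuclear genes, 0.789% held the half-site element and 1.42% the A-box pattern. Windows of the same length 1000 bp to either side of the snoRNA genes held them in 1.02% and 3.34%. The half-site element was present upstream of 20 of 30 SL RNA genes and 44 of 99 snRNA genes, known SNAPc targets, and of 11 of 612 tRNA genes. Matches without a mismatch were fewer, upstream of 9 SL RNA genes, 21 snRNA genes and 1 tRNA gene. The A-box pattern was present upstream of 1 SL RNA gene, 0 snRNA genes and 13 tRNA genes, whose own A box lies inside the gene. Since both patterns were chosen on these loci, no test was made of them.

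Within each place the order was the same, though outside hosts the shares of the 2 patterns were close. Both patterns were chosen on these same loci, so the likeness between places is no separate support. On the same strand 10 of 11 loci with the half-site element, 17 of 24 with the A-box pattern and 8 of 147 with neither had a peak. On the opposite strand the counts were 5 of 7, 4 of 8 and 2 of 18. Outside hosts they were 16 of 21, 14 of 19 and 10 of 89. The half-site matched without a mismatch at 34 loci, and 29 of these had a peak. The half-site element began over a narrower range of positions than the A-box pattern: among loci with a peak the half-site element began at a median of 58 bp upstream (range 54 to 80) and the A-box pattern also at 58 bp upstream (range 27 to 99). At 19 of the 35 loci with a peak and the A-box pattern, the same upstream bases held a B box on the gene's strand. Its order relative to the pattern was not counted. The first upstream B box began at a median of 14 bp before the gene.

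What followed the gene differed between the patterns. A run of TTTT in the 25 bases downstream was present at 31 of 35 peak loci with the A-box pattern and 19 of 31 with the half-site element. A run of TTTTT was present at 25 of 35 and 5 of 31. Windows of the same length 1000 bp to either side of the snoRNA genes held TTTT in 30.1% and TTTTT in 13.5%. These counts too were read after the patterns had been chosen and were not tested.

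The T run was tested over all loci. It was present at 61 of 86 loci with a peak (70.9%) and at 103 of 258 without (39.9%), an odds ratio of 3.67 (2.17 to 6.23, exact test, adjusted p = 4.16e-06). It passed in all 12 alternatives, with odds ratios of 3.08 to 4.52, but none of these held the upstream element fixed. Among C/D loci 23 of 30 with the T run had a peak, against 2 of 14 without it. Among H/ACA loci the counts were 11 of 40 and 6 of 32. With the half-site element the shares were close, at 19 of 23 loci with the T run (82.6%) and 12 of 16 without it (75%). With the A-box pattern the counts were 31 of 41 and 4 of 10. Where neither upstream element was present, 11 of 100 loci with the T run had a peak, against 9 of 154 without it. These counts by element were not tested.

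The B box, searched on both strands in the gene and 100 bp to each side, was present at 30 of 86 loci with a peak (34.9%) and 41 of 258 without (15.9%). The odds ratio was 2.84 (1.63 to 4.94, exact test, adjusted p = 0.00113), and the same windows 1000 bp away held it in 12.9%. Inside the gene alone the direction was the opposite, at 2 of 86 against 20 of 258 (0.283, exact test, adjusted p = 0.134), so the excess was in the flanks. Of the 30 loci, 23 had the A-box pattern. Among outside loci the difference did not pass the test (2.12, exact test, adjusted p = 0.0816 over 4 tests).

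TATAA, the letters of a TATA box, was rare in the 60 bases upstream. It was present at 3 of 86 loci with a peak (3.49%) and 21 of 258 without (8.14%), which did not pass the test (odds ratio 0.408, 0.119 to 1.40, exact test, adjusted p = 0.275). In 100 bases upstream it was at 9 of 86 and 30 of 258 (0.888, exact test, adjusted p = 0.847). Windows of 60 bases 1000 bp away held it in 6.25%. Among outside loci it was present at 0 of 40 with a peak and 11 of 89 without (exact test, adjusted p = 0.0233 over the 4 tests made in that setting). The odds ratio there was 0.0843, and its Woolf interval spanned 1 (0.00484 to 1.47). Among same-strand loci it was at 2 of 35 and 8 of 147 (odds ratio 1.05, exact test, adjusted p = 1 over 4 tests). Both settings were chosen after seeing the data.

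A search over all words of 6 bases in the 100 bases upstream gave GC-rich letters. Ranked by the difference in share on chromosomes I to III, CGCCGC came first, at 17 of 47 loci with a peak and 1 of 91 without a candidate. On chromosomes IV, V and X, not used for the ranking, it was at 4 of 39 and 1 of 70. There GGCGCA was at 5 of 39 and 3 of 70, and TGGCGC was at 6 of 39 and 4 of 70. The word GCCGCG was at 5 and 1, and the word GCGCAG at 7 and 2. Some of these words overlap the A-box pattern, as in the sequence of W03C9.9. CGCCGC and GCCGCG also lie directly after the half-site element at F01D5.12. Words and patterns are therefore not separate observations.

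Summits lay upstream of the snoRNA gene at 76 of 86 loci (88.4%), against 22 of 32 snRNA loci with a peak (68.8%) and 104 of 349 tRNA loci with a peak (29.8%). The difference from tRNA genes had an odds ratio of 17.9 (8.91 to 36.0, exact test, adjusted p = 7.18e-23). It was 9.25 in the regions of replicate 2 alone, without replicate 1, and 12.01 without replicate 2, and passed the exact test in both (largest adjusted p = 2.01e-15). Neighbouring tRNA genes that could share a peak were counted separately and were not merged. The difference from snRNA genes was 3.45 (1.28 to 9.36, exact test, adjusted p = 0.0404). That call was lost without replicate 1 (1.11, exact test, adjusted p = 1) and among loci of mostly unique sequence (1.49, exact test, adjusted p = 0.561). Upstream summits were found at 30 of 35 same-strand loci, 9 of 11 opposite-strand loci and 37 of 40 outside loci. At 72 of all 86 loci the summit was within 100 bp upstream.

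The median summit was 41.5 bp upstream of the annotated 5′ end, and it was 35 bp for same-strand loci, 38 bp for opposite-strand loci and 51.5 bp for outside loci. Relative to the first base of the half-site element, the median summit was 23 bp further downstream. Relative to the first base of the A-box pattern it was 19 bp downstream, but at 11 of 35 loci the summit lay before that base. Of these, 8 were among the 14 outside loci with the pattern, where the median was -4 bp. With the half-site element the summit lay before its first base at 5 of 31 loci. The 10 summits not upstream were at C26C6.13, ZK546.18, K07C10.2, B0334.12, C24A1.8, B0412.7, ZK643.9, C07A9.14, Y73B6A.14 and C51F7.4. Of these 10, 5 had their summit beyond the 3′ end. No summit at the 86 loci was within 250 bp of a tRNA, snRNA, SL RNA or miRNA gene. At 18 loci it was within 500 bp of the start of a protein-coding gene, and this held for 8 of the 20 loci with neither element, 7 of the 35 with the A-box pattern and 3 of the 31 with the half-site element. Other annotated short non-coding RNA genes lay within 250 bp of the summit at 27 loci, and their part in the peaks was not tested.

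**Figure D3:**
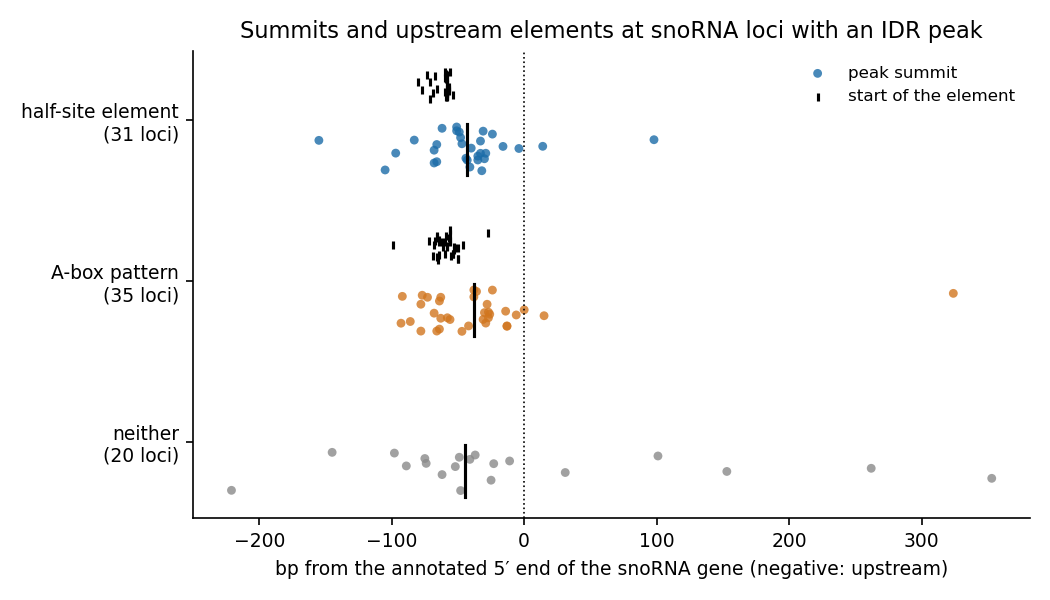
Distance of peak summits (points) and of element starts (ticks) from the annotated 5′ end of the snoRNA gene, in bp, for the 86 loci with an IDR peak by upstream element. Black bars are medians of the summits and the dotted line is the 5′ end. Summits with either element gather in the 100 bp upstream, around and after the element starts, and most of the far summits are at loci with neither.

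The IDR list was made from both replicates and holds the pooled regions of highest signal, so regions of both replicates at these peaks are in large part a consequence of how the loci were chosen. A region of replicate 1 overlapped all 86, and 82 were among its 1676 strongest, the length of the IDR list. A region of replicate 2 overlapped 85 and was among its 1676 strongest at 83. T10B9.11, with the A-box pattern, had 93.1 in the pooled list, 32.1 in replicate 1 and no overlapping region in replicate 2. Across the other 85 loci the signals of the replicates had a Spearman correlation of 0.764, a description over sites that share 1 control and 1 pair of libraries. Median signals were 43.4 in replicate 1 and 72.4 in replicate 2, on scales that are not comparable between lists. At 1 outside locus with the half-site element the region ranked 403rd in replicate 1 and 7652nd in replicate 2, with signals of 28.5 and 14.02.

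**Figure D4:**
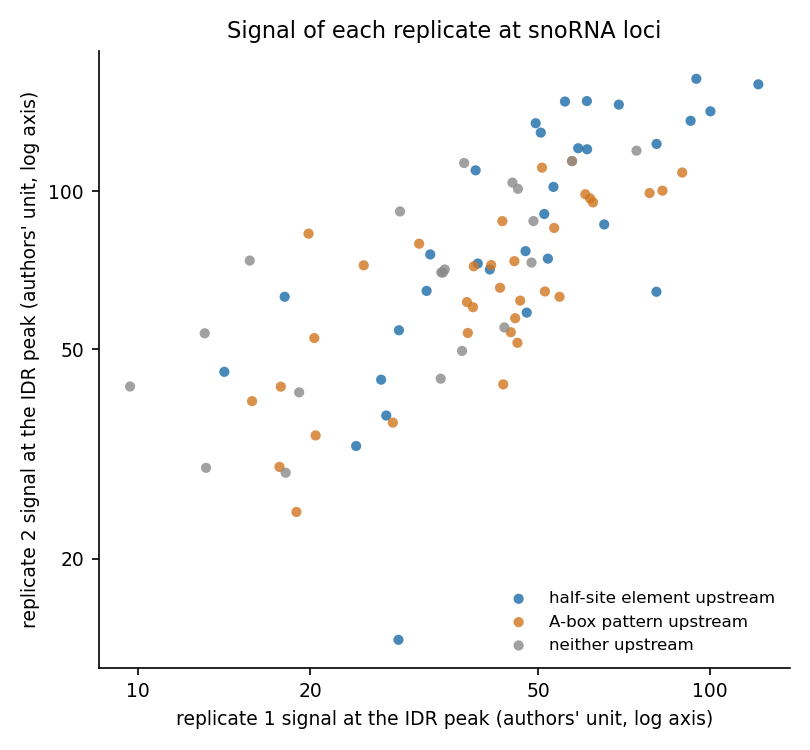
Signal of the strongest region of replicate 1 (x axis) and of replicate 2 (y axis) overlapping the IDR peak of each of 85 snoRNA loci, on log axes in the unit of the authors' caller. Colours give the upstream element. Loci with the half-site element reach the highest values in both replicates, and 1 such locus lies far below the others in replicate 2, at 14.02.

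The weakest peaks were near the end of the IDR list. Y71F9AM.7, an H/ACA locus in an intron of cogc-3, which encodes a subunit of a Golgi tethering complex, had 41.1 in the pooled list, 18.9 in replicate 1 and 24.5 in replicate 2. T23G11.12, which partly overlaps T23G11.11, had 43.1 in the pooled list, 9.69 in replicate 1 and 42.5 in replicate 2. Just outside the list, F26D10.24 in an intron of hsp-1, which encodes a constitutive heat shock protein, and C06E7.95, outside a host, both reached 38.8 as pooled candidates. Y48A6C.10, opposite to sup-35, reached 33.9, in sequence where only 53.0% of 31-mers occurred once in the genome. The lowest signal in the whole IDR list was 39.8, so these candidates were close to the boundary. Over the 97 loci with only a candidate the median signal was 18.3, and the median position of the summit was 28 bp downstream of the 5′ end.

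By chromosome, peaks were present at 18 of 74 loci on chromosome I, 19 of 71 on II, 10 of 54 on III, 19 of 58 on IV, 18 of 54 on V and 2 of 33 on X. The share on X was 6.06% (0.743 to 20.2%), against 27.0% over the autosomes (84 of 311), and was not tested because it was noticed in the data. C53B7.8 and T21F2.3 were the X-linked loci with a peak, at 98.02 and 111 in the pooled list, 34.1 and 39.3 in replicate 1 and 70.1 and 72.9 in replicate 2. Y59E1B.14, C25F6.30, C02C6.13 and K09E9.5, also on X, had an upstream element and no IDR peak. Shares by element were not counted per chromosome, so these loci are examples only.

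Copies of the same sequence make some loci uncertain. At least 80% of the 31-mers in the gene and 250 bp around it occurred once in the genome at 315 loci, and 81 of these had a peak (25.7%), against 5 of the other 29 (17.2%). Neighbouring loci can share a peak, while the tests count loci as independent. There were 39 loci within 500 bp of another snoRNA gene, in 18 clusters, and 4 clusters had a peak. The 182 same-strand loci fell in 155 host genes, 34 of them with a peak.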

How the data were processed

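Peak lists of SNPC-1.3 ChIP-seq on ce11 were used. Per the notes that the authors deposited, each replicate's regions were called against 1 control, pooled regions against that same control, and IDR peaks from these lists. The sources used here name no aligner, caller, IDR threshold or read count. Hence depth is unknown, and intervals cover counting error only. Each deposited region has a signal value in the unit of the authors' caller, comparable only within a list. The deposited −log10 q-value was read but not tested. The ce10 lists were not used.

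Genes came from Ensembl release 115 (WBcel235) and sequences from the RefSeq genome of that assembly, whose chromosome lengths hold every region. A peak was assigned to each snoRNA gene that held its summit or lay at most 250 bp from it, and the region of highest signal was kept. A locus inside several hosts was given the shortest. Each replicate's value at a peak is its strongest region overlapping it by at least 1 bp. Upstream elements were searched on the gene's strand in 100 bases. The T run was searched in 25 bases downstream.

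The 10 planned contrasts were tested with 2-sided Fisher's exact tests, Woolf 95% intervals (with 0.5 added to all cells of a table with an empty cell) and Benjamini-Hochberg adjustment over the 10 tests. In the alternatives the adjustment ran over the tests made in that setting, which were 4 for outside loci alone, for same-strand loci alone and without the X chromosome, 3 without loci in exons and 8 with merged neighbours or without summits near protein-coding starts. The code was tested on simulated data. Loci, not animals, are the units, so p-values describe these 2 pooled replicates, which the labels call biological. The members, tests and lists were chosen with earlier results of these data known, and the 2 upstream elements after their sequences were seen. Loci named were the 8 same-strand, 4 opposite-strand and 8 outside loci of highest signal, the 3 weakest with an IDR peak, the 3 highest candidates without one and those with a peak in ribosomal protein hosts. Other loci were named after their values were seen. Python 3.11.15, pandas 2.3.3, scipy 1.17.1 and statsmodels 0.14.6 were used.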

Additional observations from a re-analysis of the deposited data

How the results depend on the processing

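Of 142 alternative values, 120 kept their direction and their side of the threshold, or stayed within the interval of their share. The T run passed in all 12 alternatives and the difference from tRNA genes in the 7 run for it. No alternative held the upstream element fixed, and the contrasts with tRNA and snRNA genes were not run with merged neighbours. Same-strand against outside loci did not pass with a window of 500 bp (odds ratio 0.680), any overlap (0.547), merged neighbours (0.580), mostly unique loci (0.542), without summits near protein-coding starts (0.625) or without loci in exons (0.636), and ran from 0.530 to 0.587 without 1 replicate. It passed with the 838 strongest peaks, under which same-strand against opposite-strand loci also passed (0.364). Opposite-strand against outside loci was 0.895 without the X chromosome. Distance to the host's start gave 7.75 with a window of 0.5 times the size and 0.396 with 500 bp. Leaving out summits within 500 bp of a protein-coding start, hosts included, gave 15.8, which is no test, since the filter itself removes peaks from loci within 500 bp of a host's start. That setting lowered the share of all loci to 19.8%. The difference from snRNA genes was 2.76 with any overlap, 2.70 with the 838 strongest peaks, 1.49 among mostly unique loci and 1.11 to 4.09 without 1 replicate. The B box gave 0.283 in the gene alone and 2.12 among outside loci. TATAA gave 0.888 in 100 bases, 0.0843 among outside loci and 1.05 on the same strand, and C/D against H/ACA gave 2.15 there. The cause of these changes was not tested. Settings by place, chromosome and exon were chosen after seeing the data. No paired analysis was possible because the series has 1 group. Depth is unknown, so a locus without a peak is not shown to be unbound.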
